A study of Danio rerio with 12 samples.

Results

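The ventricle of vehicle-treated adult zebrafish 6 hours after its tip was cut off is described here across all genes on the array. The 4 arrays concerned, of 12 in the series, were chosen by their titles: 2 of the amputated control ventricle (control 6 hpa, hours post amputation) and 2 of the unamputated control ventricle (control 0 hpa). All fish were adults of the AB strain. Per the labels' protocols the controls had an intraperitoneal injection of vehicle on the day before surgery, although the treatment field of their labels reads none. The other 8 arrays are controls at 7 dpa (days post amputation) and fish given the dioxin TCDD at 70 ng/g, sampled at 6 hpa, 7 dpa and 0 hpa. Each array carries RNA pooled from the lower part of the ventricle, with the cut surface, of 10 hearts. A p-value therefore measures the spread between pools, and whether the pools came from separate days or clutches is not given in the sources used here.

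An adult zebrafish heart regrows a lost ventricular tip. A clot of red cells seals the wound first, inflammatory cells enter it, and the endocardium and epicardium, the inner and outer linings of the heart, switch on injury genes within hours and throughout the organ. Matrix is deposited next, and muscle returns later through division of existing cardiomyocytes. The 6 hour point lies in the first of these phases, and the comparison asks which transcripts had moved by then.

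The arrays of either control group resembled each other more than they resembled the other group compared. Across probe sets the correlation was 0.967 between both arrays of control 6 hpa, 0.979 between both of control 0 hpa, and 0.939 to 0.951 between the groups. Each array correlated more highly still with an array of another group of the series. These values were 0.972 and 0.976 for control 6 hpa replicates 1 and 2, and 0.982 and 0.984 for those of control 0 hpa. The median log2 intensity of the 12 arrays was 3.26 to 3.53. The 3′ minus 5′ difference of the actin control probe sets, a measure of RNA quality, was 1.87 and 0.40 log2 units on control 6 hpa replicates 1 and 2. On control 0 hpa replicates 1 and 2 it was 1.71 and −0.08. For GAPDH it was 1.85 and 1.00 at 6 hpa against 1.45 and 0.78 at 0 hpa. Both differed more between the replicate numbers than between the times, and within a replicate number both were higher at 6 hpa. On TCDD 6 hpa replicate 1 the actin difference was 3.35, while that of GAPDH was 1.12, within the range of the other arrays. Its correlation with TCDD 6 hpa replicate 2 was 0.901. That array stood apart from the rest of the series and entered the comparison only through the shared estimate of the spread. Counts of calls over all probe sets and for most lists are therefore given with all 12 arrays and with the 11 left without it.

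The labelled organ was borne out by markers of heart muscle. All 7 measured heart muscle markers had a log2 level above 5 on each of the 4 arrays, and their summed linear intensity was 30170 and 29895 at 6 hpa against 36212 and 34542 at 0 hpa. No probe set carried the symbol of the ventricular myosin gene vmhc, so these markers do not separate ventricle from atrium. Of the neighbouring organs the liver gave little signal, while pancreas transcripts were present. The liver markers summed to 59 and 105 at 6 hpa against 93.7 and 102 at 0 hpa, and those of pancreas and gut to 233 and 239 at 6 hpa against 205 and 738 at 0 hpa. The pancreas gene ctrb.1 was at 6.84 and 6.25 at 6 hpa against 6.74 and 8.96 at 0 hpa. On control 0 hpa replicate 2 the pancreas and gut sum was above those of epicardium and fibroblasts (512) and of endothelium (369). Smooth muscle markers summed to 82.8 and 75.3 at 6 hpa against 789 and 154 at 0 hpa, a spread between the unamputated arrays that bears on any smooth muscle value. In a bulk sample fewer cells of a type and less RNA per cell cannot be told apart.

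After 6 hours more probe sets had passed as falls than as rises. Of 15502 probe sets 25 rose (0.161%) and 49 fell (0.316%) at an adjusted p below 0.05, together 0.477%, and without TCDD 6 hpa replicate 1 these counts were 109 (0.703%) and 200 (1.29%), together 1.99%. All 74 calls of the 12-array fit were among the 309 of the 11-array fit. Log2 fold changes are differences of log2 intensity, 6 hpa minus 0 hpa, and the error after ± is limma's standard error. Over all probe sets the median log2 fold change was 0.02, and 95% of values lay between −1.24 and 1.00. Of all probe sets 680 lay below −1 and 392 above 1. Over the 3277 probe sets with a mean log2 level of 5 or more across all 12 arrays the median was −0.21, with 495 below −1 and 227 above 1. Most arrays in that mean are of times other than 6 hpa, so probe sets high only at those times pass more easily. That favours falls, and the values under this cut are a description only. In all 74 called probe sets the groups did not overlap, which was also so for 44.2% of all probe sets, 22.0% with 6 hpa higher and 22.1% with 6 hpa lower. Except for genes fixed in advance and tissue markers, genes named below from the calls and lists were chosen among those without overlap. Separation of the groups noted for such genes restates that choice. The balance of the calls rested on control 6 hpa replicate 2, without which 15 probe sets rose and 4 fell.

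**Figure D1:**
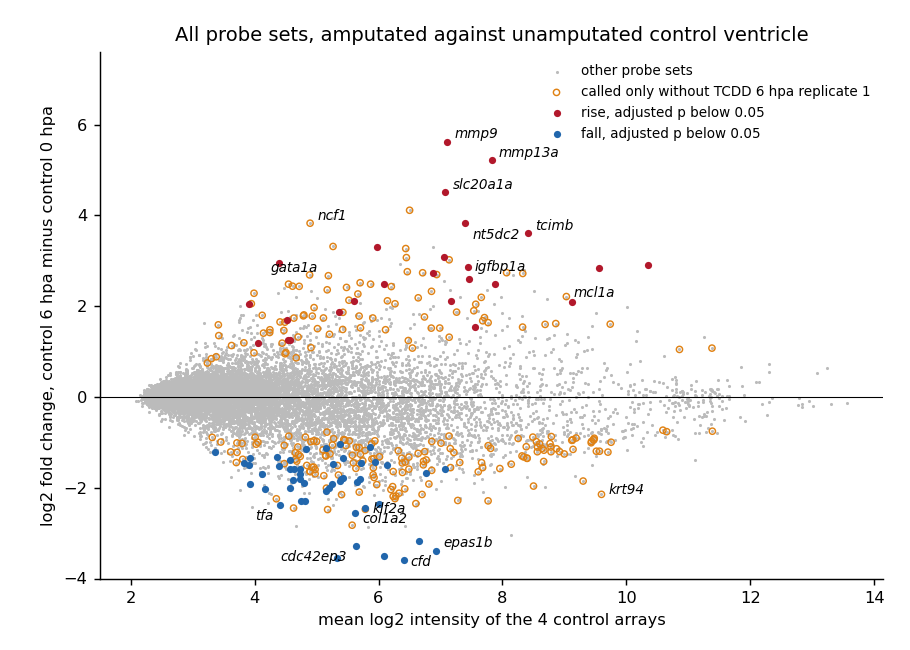
Log2 fold change (control 6 hpa minus control 0 hpa) against the mean log2 intensity of the 4 control arrays, 1 point per probe set. Red and blue points are the 25 rises and 49 falls of the 12-array fit and open orange circles the 235 probe sets called only without TCDD 6 hpa replicate 1; the falls lie mostly at middling levels, while the largest rises, mmp9 and mmp13a, exceed 5 log2 units.

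Of the 25 rises 19 carried 1 gene symbol, for 18 genes, and of the 49 falls 36 did, 3 of them with a clone name. Many changes crossed the dim end of the scale. In 11 rises both 0 hpa arrays lay below a log2 level of 5, and in 39 falls both 6 hpa arrays did. The deposited values carry no detection call, so for these the size of the change may be understated.

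**Figure D2:**
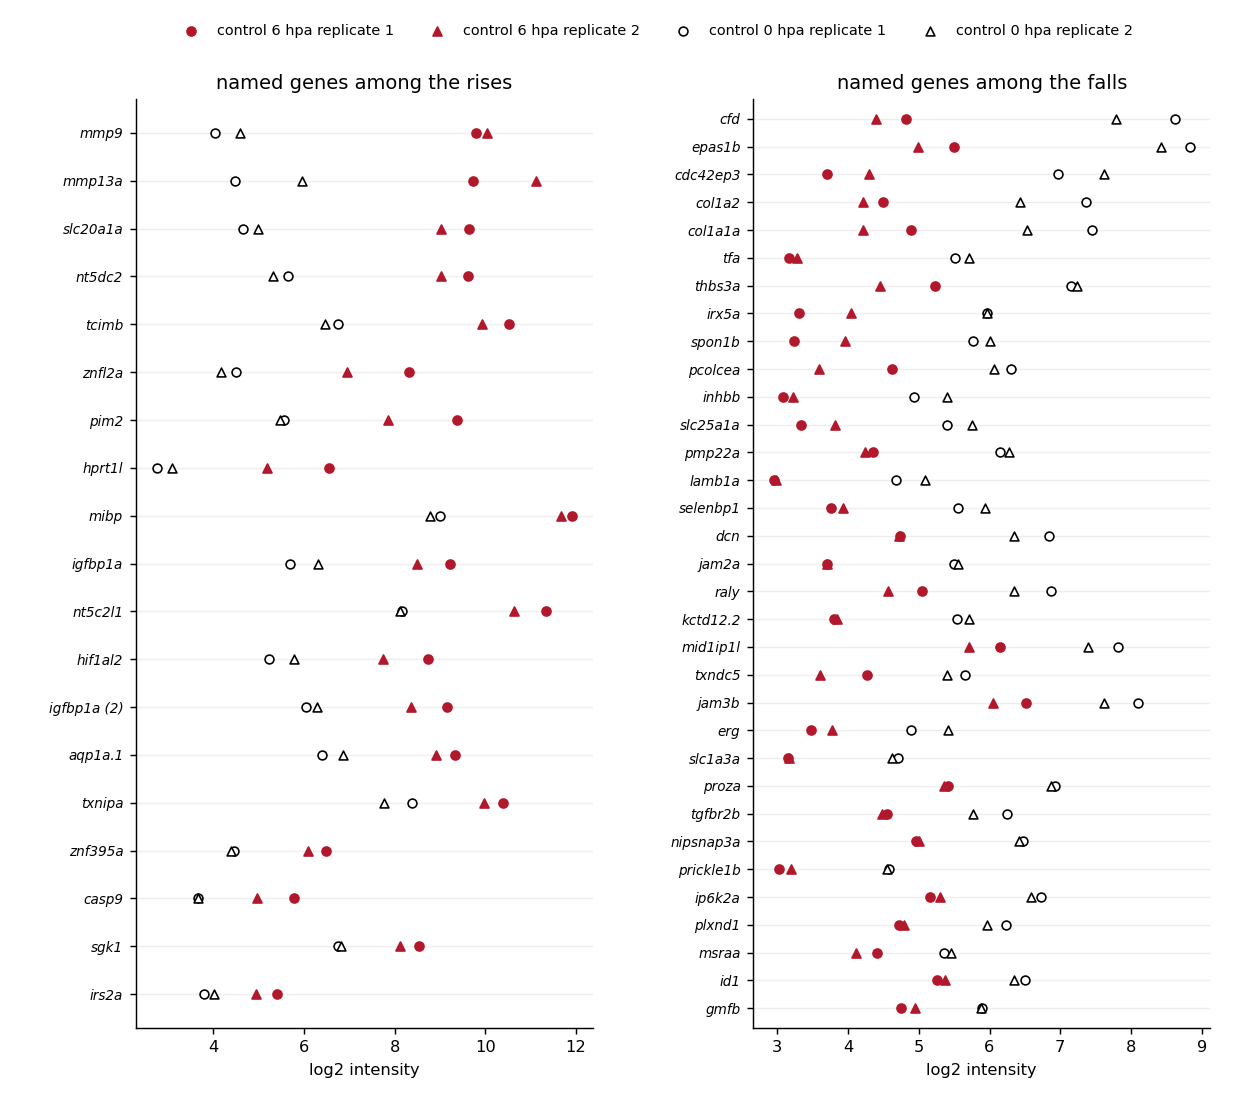
Log2 intensity of the named genes that passed, rises in the left panel and falls in the right panel, ordered by the size of the change. Filled symbols are the 2 arrays of control 6 hpa and open symbols the 2 arrays of control 0 hpa, and no gene shows overlap between the groups.

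Enzymes that cut matrix, and the inhibitors of these enzymes, held the largest rises and also members that were lower. Of 37 such genes 2 rose and 0 fell, and 5 were called higher and 1 lower in the 11-array fit. For scale, 0.205% of 8793 genes rose and 0.387% fell with 12 arrays, and 0.842% and 1.66% with 11. These shares are the background for the calls of each list below. The gelatinase gene mmp9 was at 9.80 and 10.04 on the arrays of 6 hpa against 4.03 and 4.58 on those of 0 hpa, and the collagenase gene mmp13a at 9.74 and 11.12 against 4.49 and 5.95. Timp2b, which encodes a tissue inhibitor of metalloproteinases, was at 6.30 and 7.55 at 6 hpa against 3.41 and 3.81 at 0 hpa (3.32 ± 0.80, adjusted p = 0.139, or 0.0163 without TCDD 6 hpa replicate 1). Groups were apart in all 3 genes, and for mmp13a and timp2b replicate 2 of 6 hpa was the higher array by more than 1 log2 unit. Another inhibitor, serpine2, a serpin of thrombin and plasminogen activators, was at 1.49 ± 0.39 (adjusted p = 0.166, or 0.0424 with 11 arrays).

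The other gelatinase gene ran the opposite way. Mmp2, made mainly by fibroblasts, was at 3.98 and 4.28 at 6 hpa against 6.03 and 5.62 at 0 hpa (−1.69 ± 0.30, adjusted p = 0.053, or 0.0297 with 11 arrays), and its other probe set gave −2.45 (adjusted p = 0.0513 and 0.0341). Neither pair of arrays overlapped. The cysteine protease genes divided as well: ctss2.1, a cathepsin S, was at 2.27 ± 0.68 (adjusted p = 0.235, or 0.0206 with 11 arrays) and ctsk, cathepsin K, at −1.24 ± 0.37 (adjusted p = 0.227, or 0.108).

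Genes of neutrophils, the first white cells to enter a wound, were almost uniformly higher. Of 18 measured, 17 had a positive log2 fold change with a median of 1.26, against 0.01 over all genes, and in 14 both 6 hpa arrays lay above both 0 hpa arrays, as in 20.9% of all genes. Only mmp9 and mmp13a passed with 12 arrays. Ncf1, a subunit of the NADPH oxidase, joined them with 11: it was at 6.04 and 7.58 at 6 hpa against 2.86 and 3.1 at 0 hpa (3.83 ± 1.17, adjusted p = 0.245 and 0.0243). The lysozyme gene lyz was at 6.30 and 9.31 at 6 hpa against 5.85 and 3.91 at 0 hpa (adjusted p = 0.565), and the transcription factor gene cebp1 at 4.34 and 6.63 against 3.46 and 3.74 (adjusted p = 0.308). In both, the 6 hpa arrays differed by more than 2 log2 units. Mpx, the myeloperoxidase gene, was at 2.49 and 2.56 at 6 hpa against 2.51 and 2.67 at 0 hpa, levels below the array medians, and its other probe sets lay between −0.13 and 0.45.

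The pools of amputated hearts differed in these transcripts. Replicate 2 of 6 hpa was the higher array for 16 of the 18 neutrophil genes, by a median of 1.04 log2 units. The summed linear intensity of the 5 neutrophil markers was 1896 and 4115 at 6 hpa against 109 and 116 at 0 hpa. Mmp9 and mmp13a were the brightest of these markers on both 6 hpa arrays, so the 6 hpa sums mostly restate their rises. Mpx, also among the 5, was not higher. Leaving out 1 of the 4 arrays moved the list's median between 0.80 (without control 6 hpa replicate 2) and 1.78, and 16 added to the intensity before log2 gave 0.74. Genes of macrophages and other leukocytes were less far from the unamputated level. Of 44 none passed with 12 arrays and 1, ctss2.1, with 11. Of the same 44, 36 were positive, with a median of 0.30 (0.11 with 16 added to the intensity). Non-overlapping arrays with 6 hpa higher were found in 26 of the 44, against 20.9% of all genes. With 6 hpa lower they were found in 4, against 24.3% of all genes. The macrophage markers marco, csf1ra, apoeb, lgals3bp.1 and grna all lay below 5 on each of the 4 arrays, and summed to 79.0 and 84.6 at 6 hpa against 45.2 and 62.3 at 0 hpa.

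In the Stat3 pathway Jak kinases, switched on by cytokine receptors, activate the transcription factor Stat3, and Socs proteins shut it off. Of 20 genes of this pathway 1 rose and 0 fell, 16 were positive and the median was 0.83, with a range of 0.61 to 0.89 over leaving out 1 array and 0.53 with 16 added to the intensity before log2. With 11 arrays 3 were called higher and 0 lower, against 0.842% and 1.66% of all genes. Pim2, a survival kinase, rose: it was at 9.37 and 7.85 at 6 hpa against 5.57 and 5.46 at 0 hpa (3.09 ± 0.44, adjusted p = 0.0299). Mcl1a, an anti-apoptotic member of the Bcl-2 family, was at 10.62 and 9.66 against 8.03 and 7.82 (2.21 ± 0.38, adjusted p = 0.0513, or 0.0341 with 11 arrays). Cebpb, a transcription factor of the acute response, was at 6.41 and 6.75 against 4.60 and 4.99 (1.78 ± 0.51, adjusted p = 0.214, or 0.0221). The groups overlapped in none of these genes.

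The inhibitor genes of the pathway were less clear. Socs3a was at 9.80 and 9.96 at 6 hpa against 8.44 and 9.27 at 0 hpa (1.02 ± 0.69, adjusted p = 0.777) and socs3b at 7.26 and 7.49 against 4.62 and 6.93 (adjusted p = 0.699). For socs3b the unamputated arrays differed from each other by more than the groups did. Stat3 itself was at 0.83 ± 0.33 (adjusted p = 0.421), jak1 at 1.19 ± 0.46 (adjusted p = 0.397) and cebpd at −0.36 ± 0.86 (adjusted p = 1.0). Of 13 chemokine and cytokine genes with a probe set 0 passed in either fit, and il1b, il6, il11a, cxcl8a, cxcl18b and tnfa were not analysed here because no probe set carried their symbol. Among 33 inflammatory receptor and signalling genes 1 passed with 11 arrays, nfkbiaa, the inhibitor of NF-κB, at 1.48 ± 0.52 (adjusted p = 0.327 and 0.0206).

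Red cell genes, too, lay mostly above the unamputated level. Of 43 genes of erythrocytes and heme 2 rose (aqp1a.1, of a water channel, and znfl2a), 0 fell, and 8 were called higher with 11 arrays; 36 were positive and the median was 0.64. They included the transcription factors of red cell formation. Klf1, the erythroid Krüppel-like factor, was at 7.93 and 7.76 at 6 hpa against 4.52 and 5.65 at 0 hpa (2.76 ± 0.55, adjusted p = 0.0758, or 0.0475 with 11 arrays). Gata1a was at 7.39 and 5.66 against 3.84 and 3.87 (2.67 ± 0.46, adjusted p = 0.0513, or 0.0305), and tal1 at 6.43 and 5.15 against 3.01 and 3.60 (2.49 ± 0.50, adjusted p = 0.0783, or 0.0243). Nfe2, a regulator of globin genes, was at 1.78 ± 0.32 (adjusted p = 0.0536, or 0.0361). The groups were apart in all 4 genes, and in all of them replicate 1 of 6 hpa was the higher array.

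Besides aqp1a.1, other genes of red cell membrane proteins were higher as well, short of a call with 12 arrays. Epb41b, of the membrane skeleton, was at 8.91 and 7.66 at 6 hpa against 5.58 and 5.6 at 0 hpa (2.7 ± 0.46, adjusted p = 0.0513, or 0.0343 with 11 arrays). The anion exchanger gene slc4a1a was at 10.26 and 9.25 against 6.84 and 7.06 (2.81 ± 0.59, adjusted p = 0.0945, or 0.0531). The alpha globin gene hbaa1, among the brightest probe sets, was at 13.39 and 13.28 against 12.94 and 12.68 (0.53 ± 0.17, adjusted p = 0.284). Summed over the 5 erythrocyte markers the linear intensity was 14351 and 11236 at 6 hpa against 8279 and 6892 at 0 hpa, and the lowest 6 hpa sum was above the highest 0 hpa sum.

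At 6 hpa replicate 1 carried more of the red cell transcripts and replicate 2 more of the neutrophil transcripts. Replicate 1 was the higher array for 35 of the 43 red cell genes, by a median of 0.57 log2 units, and also for 22 of the 25 probe sets that rose, by a median of 0.47. Over all probe sets it was the higher one in 7302 of 15502, with a median difference of −0.02. How far the red cell and neutrophil content of the pools bears on other rises was not tested. The difference between these pools limits each value of both groups, since a median over 2 pools moves with either.

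**Figure D3:**
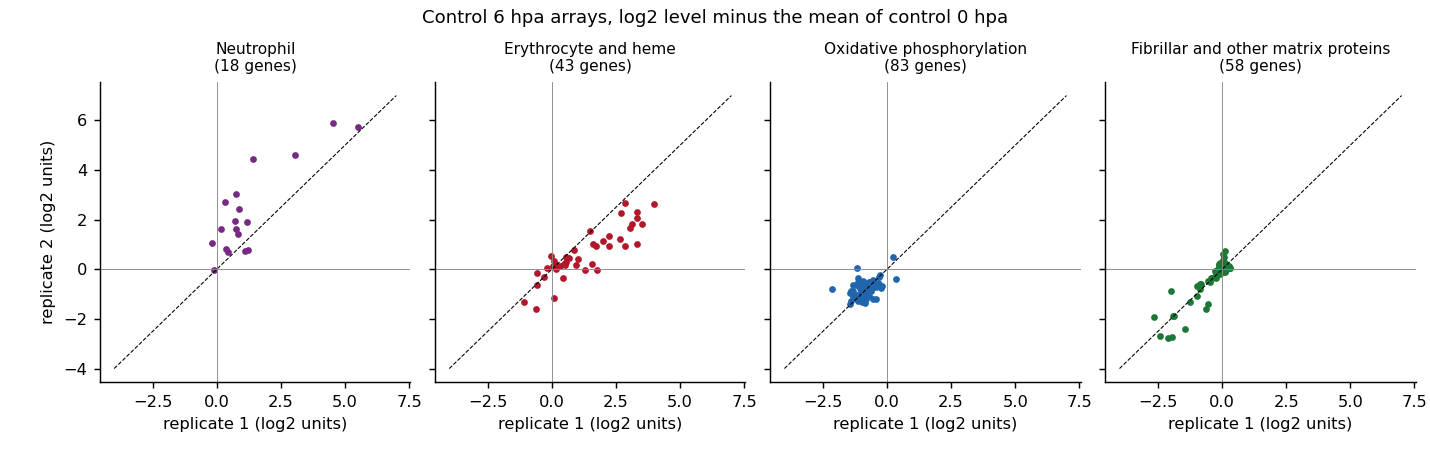
Log2 level on control 6 hpa replicate 1 (horizontal) and replicate 2 (vertical), each minus the mean of both control 0 hpa arrays, for 4 gene lists, with 1 point per gene and a dashed line of equal values. Of the 18 neutrophil genes 16 lie above the line and of the 43 red cell genes 35 lie below it, while the genes of oxidative phosphorylation and of the matrix scatter around it.

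Several rises were of genes known from hormone and insulin signalling, although activity of these pathways was not tested. The labels name no sham-operated group, so the wound and the handling of the fish cannot be told apart. The list of 37 known glucocorticoid and stress hormone targets held 3 rises and 0 falls, and 7 members were called higher with 11 arrays. Its median was 0.28, or 0.15 without control 6 hpa replicate 1. Non-overlapping arrays with 6 hpa higher were found in 20 (54.1%, against 20.9% of all genes). Sgk1, a kinase induced by serum and glucocorticoids, was at 8.55 and 8.11 at 6 hpa against 6.75 and 6.82 at 0 hpa (1.54 ± 0.25, adjusted p = 0.0425). Txnipa, which binds thioredoxin and limits glucose uptake, was at 10.40 and 9.96 against 8.39 and 7.76 (2.1 ± 0.33, adjusted p = 0.0393). Irs2a, an adaptor of the insulin receptor, was at 5.40 and 4.94 against 3.80 and 4.01 (1.27 ± 0.20, adjusted p = 0.0441). All 3 rose with the groups apart.

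Beside them stood genes that passed with 11 arrays alone. Klf9, a transcription factor induced by the glucocorticoid receptor, was at 9.65 and 9.23 at 6 hpa against 6.80 and 6.59 at 0 hpa (2.74 ± 0.50, adjusted p = 0.0598 and 0.0101), and pfkfb4b, whose enzyme sets the rate of glycolysis, at 8.25 and 7.90 against 4.78 and 4.83 (3.27 ± 0.77, adjusted p = 0.132 and 0.0154). The groups were apart by more than 2 log2 units in both. Klf9 is also on the circadian clock list, of whose 34 genes 25 were positive, with a median of 0.21. On that list 35.3% had arrays apart with 6 hpa higher, against 20.9% of all genes. It held 0 calls with 12 arrays and 1 with 11. The co-chaperone gene fkbp5 was at 1.84 ± 0.48 (adjusted p = 0.161, or 0.108). Not every target was higher: 12 of the 37 were negative, down to −1.25.

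Igfbp1a, which encodes a binding protein that holds insulin-like growth factors away from their receptor, rose on both of its probe sets. They were at 9.23 and 8.5 and at 9.16 and 8.37 at 6 hpa, against 5.70 and 6.32 and 6.05 and 6.28 at 0 hpa (2.86 ± 0.46 and 2.60 ± 0.41). The insulin-like growth factor list as a whole shared no direction, with 13 of 28 genes positive and a median of −0.09; its other rise was irs2a. Sesn3, a sestrin of the nutrient response, was at 3.99 and 4.32 at 6 hpa against 6.34 and 5.99 at 0 hpa (−2.01 ± 0.35, adjusted p = 0.0527, or 0.0346 with 11 arrays).

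The hypoxia response, a further pathway known to control igfbp1a, was split between its factors. Hif1al2, a gene of the family of hypoxia-inducible factor alpha subunits, rose: it was at 8.74 and 7.75 at 6 hpa against 5.23 and 5.78 at 0 hpa (2.74 ± 0.45, adjusted p = 0.0461). Epas1b, another member, fell: it was at 5.50 and 4.98 at 6 hpa against 8.83 and 8.43 at 0 hpa (−3.39 ± 0.48, adjusted p = 0.0299). A further alpha subunit gene, hif1ab, was at 9.09 and 8.58 against 8.48 and 8.67 (0.26 ± 0.37, adjusted p = 0.997). Over the 39 genes of this list 2 rose (hif1al2 and igfbp1a) and 2 fell (epas1b and the transferrin gene tfa), and the median was −0.03, with values on both sides of 0 under other scalings or without 1 array. Vegfaa, the vascular growth factor and a classical target, was at −0.06 ± 0.45, and bnip3, of mitochondrial clearance, at −1.84 ± 0.47 (adjusted p = 0.156). Other members were higher. Pfkfb4b, named above, had the highest value of the list at 3.27 ± 0.77 (adjusted p = 0.132, or 0.0154 without TCDD 6 hpa replicate 1). Ndrg1a was at 1.21 ± 0.31 (adjusted p = 0.16). Of the 39 genes 9 lay above 1 and 6 below −1, against 241 and 459 of all 8793 genes.

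Genes of nucleotide handling held 3 of the 18 genes that rose. Of 53 on the list 3 rose and 0 fell, and 4 were higher and 1 lower with 11 arrays, while the median of the list was 0.09, or 0.01 without control 6 hpa replicate 2. Nt5c2l1, of the cytosolic 5′-nucleotidase family, was at 11.34 and 10.62 at 6 hpa against 8.16 and 8.12 at 0 hpa (2.85 ± 0.46, adjusted p = 0.0441). Nt5dc2, which encodes a protein with a 5′-nucleotidase domain, was at 9.62 and 9.01 against 5.64 and 5.31, and hprt1l, a relative of the purine salvage gene hprt1, at 6.54 and 5.18 against 2.75 and 3.09. The paralog hprt1 was at −0.25. Impdh2, for guanine nucleotide synthesis, was at 1.64 ± 0.32 (adjusted p = 0.0702, or 0.0475 with 11 arrays), and adsl, an enzyme of purine synthesis, at −1.20 ± 0.38 (adjusted p = 0.259, or 0.0408). On 6 hpa replicate 1 all 3 risers were higher than on replicate 2, by 0.61 to 1.36 log2 units.

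Transport genes gave 2 rises and 2 falls of 134, and with 11 arrays 4 were called higher and 3 lower. Over all genes 0.205% rose and 0.387% fell with 12 arrays, and 0.842% and 1.66% with 11. The phosphate transporter gene slc20a1a was at 9.65 and 9.01 at 6 hpa against 4.66 and 4.98 at 0 hpa (4.51 ± 0.53, adjusted p = 0.0197). Aqp1a.1, whose water channel is known from red cells and endothelium, was at 9.33 and 8.90 against 6.40 and 6.86 (2.49 ± 0.35, adjusted p = 0.0299). Slc25a1a, the mitochondrial citrate carrier, fell: it was at 3.34 and 3.81 at 6 hpa against 5.39 and 5.76 at 0 hpa (−2.0 ± 0.23, adjusted p = 0.0197). So did slc1a3a, a glutamate transporter, at 3.15 and 3.17 against 4.71 and 4.62 (−1.51 ± 0.20, adjusted p = 0.0299). The 62 genes of amino acid and polyamine synthesis and tRNA charging had a median of 0.13, with 43 positive, 19 negative and no call with 12 arrays. Odc1, the first enzyme of polyamine synthesis, was at 6.33 and 6.13 against 3.12 and 3.97 (2.69 ± 0.55, adjusted p = 0.081, or 0.0163 with 11 arrays), and slc3a2b, a chain of amino acid transporters, at 2.33 ± 0.73 (adjusted p = 0.26, or 0.0254). Sms, spermine synthase, was at 5.02 and 5.01 at 6 hpa against 6.16 and 6.29 at 0 hpa (−1.21 ± 0.31, adjusted p = 0.162, or 0.106).

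Of the remaining rises 1 was a cell death gene. Casp9, the initiator caspase of the mitochondrial death pathway, was at 5.77 and 4.97 at 6 hpa against 3.67 and 3.67 at 0 hpa (1.70 ± 0.25, adjusted p = 0.0371). Gadd45aa, a gene of the DNA damage response, was at 5.32 and 4.95 against 2.51 and 3.19 (2.29 ± 0.68, adjusted p = 0.233, or 0.0163 with 11 arrays). Both had their groups apart, and of 59 apoptosis and p53 genes 1 rose and 0 fell, 3 were higher with 11 arrays, and 40 were positive with a median of 0.17. Mibp, at 11.92 and 11.68 against 9.0 and 8.79, was the brightest gene to rise (2.91 ± 0.41, adjusted p = 0.0299). The transcription regulator genes tcimb and znf395a rose by 3.60 ± 0.46 (adjusted p = 0.0299) and 1.87 ± 0.29 (adjusted p = 0.0393).

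With all 12 arrays the matrix list held more falls than any other list, and with 11 that of oxidative phosphorylation did. Of 58 genes of collagens and other matrix proteins 6 fell and 0 rose, and 7 were called lower with 11 arrays. The list's median was −0.04, since many members were dim. Among the 13 with a mean log2 level of 5 or more across all 12 arrays all were negative. Their median was −1.29, against −0.21 over the 2424 genes of that brightness. This mean, which also sets the brighter members of other lists, includes 0 hpa and 7 dpa. Members can thus pass through groups where they are high: col1a2 was at 9.51 and 10.18 at 7 dpa. The 6 falls reached several kinds of matrix. The fibrillar collagen genes col1a1a and col1a2 were at 4.89 and 4.22 and at 4.49 and 4.21 at 6 hpa, against 7.45 and 6.53 and 7.36 and 6.44 at 0 hpa. Their dimmer probe sets did not pass with 12 arrays. That of col1a1a gave −1.65 (adjusted p = 0.243, or 0.125 with 11 arrays) and that of col1a2 −1.60 (adjusted p = 0.065, or 0.0365). The basement membrane gene lamb1a, a laminin chain, was at 2.95 and 2.99 at 6 hpa against 4.67 and 5.09 at 0 hpa (−1.91 ± 0.31, adjusted p = 0.0441). At 6 hpa lamb1a lay below the median of either array.

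Secreted proteins that bind matrix fell with them. Spon1b, a spondin, was at 3.24 and 3.95 at 6 hpa against 5.77 and 6.01 at 0 hpa (−2.29 ± 0.36, adjusted p = 0.0405), and dcn, the collagen-binding proteoglycan decorin, at 4.73 and 4.72 against 6.84 and 6.34 (−1.86 ± 0.20, adjusted p = 0.0197). Thbs3a, a thrombospondin, was at 5.23 and 4.45 against 7.15 and 7.24 (−2.35 ± 0.25, adjusted p = 0.0197). Sparc, which regulates collagen assembly, was at 5.49 and 4.52 against 7.23 and 6.65 (−1.93 ± 0.33, adjusted p = 0.0513, or 0.0287 with 11 arrays). Groups were apart in all 4 genes. Of the fibronectin genes, which the epicardium makes during regeneration, fn1a was at −0.01 ± 0.23 and fn1b at 6.70 and 6.96 against 7.48 and 7.65 (−0.74 ± 0.43, adjusted p = 0.699), and postnb, periostin, at −1.12 ± 0.40 (adjusted p = 0.337).

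Most genes for the making of collagen were negative too. Of 20 genes of collagen assembly 1 fell and 0 rose, 2 were lower with 11 arrays and 16 were negative, with a median of −0.30 a range of −0.42 to −0.23 over leaving out 1 array, and −0.11 with 16 added to the intensity before log2. Pcolcea, an enhancer of procollagen processing, fell by 2.07 ± 0.34 (adjusted p = 0.0441), and crtap, of the complex that hydroxylates prolines in collagen, was at −1.26 ± 0.22 (adjusted p = 0.0532, or 0.0341). Txndc5, a disulfide isomerase of the endoplasmic reticulum, fell on its brightest probe set (−1.58 ± 0.26, adjusted p = 0.0448), while its other probe sets lay between −0.69 and 0.39.

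Markers of epicardium and fibroblasts, cells that make matrix, were mostly negative. Of 41 genes of epicardium and fibroblasts 4 fell, all of them named above as matrix genes or pcolcea, and 7 were lower with 11 arrays. In all 31 were negative, and the median was −0.19 (−0.30 without control 0 hpa replicate 2). That of the 21 brighter members was −1.05, against −0.21 over all genes of that brightness. Here too members can pass the cut through 0 hpa or 7 dpa. Podxl, a sialomucin of epithelial surfaces, was at 7.56 and 7.48 at 6 hpa against 9.54 and 9.42 at 0 hpa (−1.96 ± 0.38, adjusted p = 0.0701, or 0.0444 with 11 arrays), and the keratin gene krt94 at 8.77 and 8.28 against 10.78 and 10.57 (−2.15 ± 0.48, adjusted p = 0.116, or 0.00788). Aldh1a2, the retinoic acid enzyme that the injured epicardium and endocardium induce, was the exception among the named members at 8.49 and 8.43 against 6.35 and 7.65 (1.46 ± 0.59, adjusted p = 0.427). Tbx18, of the epicardium, lay near the array median on all 4 arrays, and tcf21 and wt1b were not analysed here.

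Some vessel and endocardial genes fell. Of 48, 3 fell and 0 rose, 1 was higher and 4 were lower with 11 arrays, and the median was −0.06. Among the 13 brighter members it was −0.86, against −0.21 over all genes of that brightness. As in the matrix list, members can pass this cut through 0 hpa or 7 dpa, so the value is a description only. Plxnd1, the semaphorin receptor of endothelium, was at 4.72 and 4.79 at 6 hpa against 6.23 and 5.97 at 0 hpa (−1.34 ± 0.18, adjusted p = 0.0299). Erg, an endothelial transcription factor, was at 3.48 and 3.77 against 4.89 and 5.41 (−1.52 ± 0.23, adjusted p = 0.0393), and id1, a target of BMP signals, at 5.26 and 5.37 against 6.5 and 6.34 (−1.10 ± 0.17, adjusted p = 0.0392). Klf2a, a transcription factor that blood flow induces in the endocardium, was at 4.38 and 4.72 against 6.98 and 7.07 (−2.47 ± 0.53, adjusted p = 0.0957, or 0.0163 with 11 arrays). Kdrl, a receptor of vascular endothelial growth factor, was at 7.16 and 7.19 against 7.90 and 8.25 (−0.90 ± 0.55, adjusted p = 0.723), and the 1 member called higher, tal1, is also a red cell gene.

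The junction genes jam2a and jam3b fell. Jam2a was at 3.70 and 3.70 at 6 hpa against 5.50 and 5.55 at 0 hpa (−1.82 ± 0.20, adjusted p = 0.0197). Jam3b passed on the dimmer of its probe sets, at 6.52 and 6.05 against 8.10 and 7.62 (−1.58 ± 0.25, adjusted p = 0.0401), and its brightest gave −1.11 ± 0.56 (adjusted p = 0.589). In 46 adhesion genes these directions were not general, with 25 positive. Sdc4, a syndecan that senses fibronectin, was at 8.93 and 8.25 against 6.46 and 6.64 (2.04 ± 0.38, adjusted p = 0.064, or 0.021 with 11 arrays).

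Of 58 growth factor signalling genes 1 fell and 0 rose, 2 were lower with 11 arrays, 23 were positive and the median was −0.06. Over all genes 0.387% fell with 12 arrays and 1.66% were lower with 11. The ligand gene inhbb, the beta B chain of activin, was at 3.08 and 3.22 at 6 hpa against 4.94 and 5.40 at 0 hpa (−2.02 ± 0.28, adjusted p = 0.0299). The type II receptor gene tgfbr2b fell on its second probe set (−1.48 ± 0.25, adjusted p = 0.0457), while its brightest was at 5.20 and 4.51 against 6.77 and 7.26 (−2.16 ± 0.54, adjusted p = 0.151). The inhibitor gene smad7 was at 4.38 and 4.45 against 5.39 and 5.42 (−0.99 ± 0.25, adjusted p = 0.152, or 0.0283 with 11 arrays), and tgfb1a, a ligand, at 0.63 ± 0.36 (adjusted p = 0.69). Of 75 genes of Wnt, Notch and Hedgehog signalling none passed with 12 arrays and 2 were lower with 11: the Notch target her6, at 4.58 and 5.50 against 6.71 and 6.92 (−1.77 ± 0.35, adjusted p = 0.0721 and 0.0304), and the Wnt receptor fzd2 (−1.47 ± 0.27, adjusted p = 0.0598 and 0.0408). The share of all genes called lower with 11 arrays was 1.66%.

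No gene of the contractile apparatus passed. Of 41 sarcomere genes 0 were called in either fit, 30 were negative and the median was −0.17, or −0.08 without control 6 hpa replicate 1. Myl7, the cardiac myosin light chain and among the brightest markers, was at 12.90 and 12.91 at 6 hpa against 13.07 and 12.93 at 0 hpa (−0.09 ± 0.17, adjusted p = 1.0). Its change was the smallest of the 7 measured heart muscle markers, whose median was −0.40. Of 53 genes of cardiac transcription factors and natriuretic peptides 1 fell and 0 rose, 22 were positive and 31 negative, and the median was −0.04. With 11 arrays 2 were called lower, against 1.66% of all genes. Arrays were apart with 6 hpa higher in 7 (13.2%, against 20.9% of all genes) and with 6 hpa lower in 16 (30.2%, against 24.3%). The fall was that of irx5a, by 2.29 ± 0.38 (adjusted p = 0.0446). Among the others hand2 was at 8.02 and 7.30 against 8.68 and 8.67 (adjusted p = 0.397), nkx2.5 at 5.61 and 5.06 against 6.32 and 6.91 (adjusted p = 0.321) and tbx5a at 4.56 and 4.69 against 5.50 and 6.14 (adjusted p = 0.172). For gata4 all 4 arrays lay between 3.17 and 3.52, near the array median, and gata6 was at −1.22 ± 0.24 (adjusted p = 0.073, or 0.0447 with 11 arrays). Calm3a, a calmodulin gene, was at −2.04 ± 0.60 (adjusted p = 0.224, or 0.0281).

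Genes of the respiratory chain and of mitochondrial ribosomes were nearly all lower. Of 83 genes of oxidative phosphorylation none passed with 12 arrays and 22 were called lower with 11; 82 were negative, 80 had non-overlapping arrays with 6 hpa lower, against 24.3% of all genes, and the median was −0.83. Leaving out 1 array moved this median between −0.88 and −0.76, and other scalings between −0.88 and −0.69. Complex I accounted for most of the calls. All 33 of its genes were negative with arrays apart, their median was −0.94, and 16 were called with 11 arrays. For complexes II, III, IV and V the medians were −0.82, −0.78, −0.76 and −0.77, with 0 of 4, 1 of 8, 3 of 14 and 2 of 18 called.

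Single subunits called with 11 arrays give examples at the larger end, each lower than the median of its complex. Cox5ab and cyc1 were the lowest genes of complexes IV and III. Ndufc2, of complex I, was at 8.98 and 8.85 at 6 hpa against 10.08 and 10.15 at 0 hpa (−1.20 ± 0.37, adjusted p = 0.256, or 0.0163 with 11 arrays), and cox5ab, of complex IV, at 7.93 and 7.98 against 9.43 and 9.32 (−1.42 ± 0.58, adjusted p = 0.432, or 0.0163). Cyc1, cytochrome c1 of complex III, was at 9.09 and 8.77 against 10.07 and 9.81 (−1.01 ± 0.28, adjusted p = 0.2, or 0.0305). In each of them the arrays of a group lay closer to each other than to the other group.

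The ribosomes of the mitochondrion and of the cytosol differed. All 63 mitochondrial ribosomal protein genes were negative, with a median of −0.90. In 59 the arrays were apart with 6 hpa lower (93.7%, against 24.3% of all genes). With 11 arrays 7 were called lower, among them mrps12 (−1.64 ± 0.38, adjusted p = 0.128, or 0.021) and mrpl41 (−1.45 ± 0.44, adjusted p = 0.245, or 0.0412). Of 80 cytosolic ribosomal protein genes none passed in either fit, 52 were positive and the median was 0.06. Ribosome biogenesis genes, 100 in all, had a median of 0.11 and no call, with the nucleolar gene npm1a at 8.21 and 8.27 at 6 hpa against 7.00 and 7.48 at 0 hpa (adjusted p = 0.516). Without 1 of the 4 arrays these medians lay between 0.02 and 0.11 and between 0.03 and 0.17.

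Fuel pathways of the mitochondrion were lower on balance. Of 55 genes of fatty acid use none passed with 12 arrays, 2 were higher and 3 lower with 11, and the median was −0.80. Eci2 and eci1, isomerases of fatty acid oxidation, were at 6.83 and 6.74 and at 7.70 and 7.63 at 6 hpa, against 8.59 and 8.28 and 8.93 and 9.0 at 0 hpa (adjusted p = 0.135 and 0.177, or 0.0154 and 0.0253 with 11 arrays). The uncoupling protein genes ran against the list: ucp2 was at 9.38 and 9.60 against 7.62 and 8.16 (1.6 ± 0.62, adjusted p = 0.397, or 0.0189) and ucp3 at 7.73 and 7.76 against 6.15 and 6.30 (1.52 ± 0.45, adjusted p = 0.225, or 0.0322). For 39 genes of the citric acid cycle and pyruvate the median was −0.60, and 1 was called lower with 11 arrays. The 51 glycolysis genes had a median of −0.09, and the 53 proteasome genes, with a median of −0.28, gave no call in either fit. Without control 6 hpa replicate 2 the citric acid cycle median was −0.39 and the proteasome median −0.10; quantile normalization also gave −0.10 for the proteasome.

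**Figure D4:**
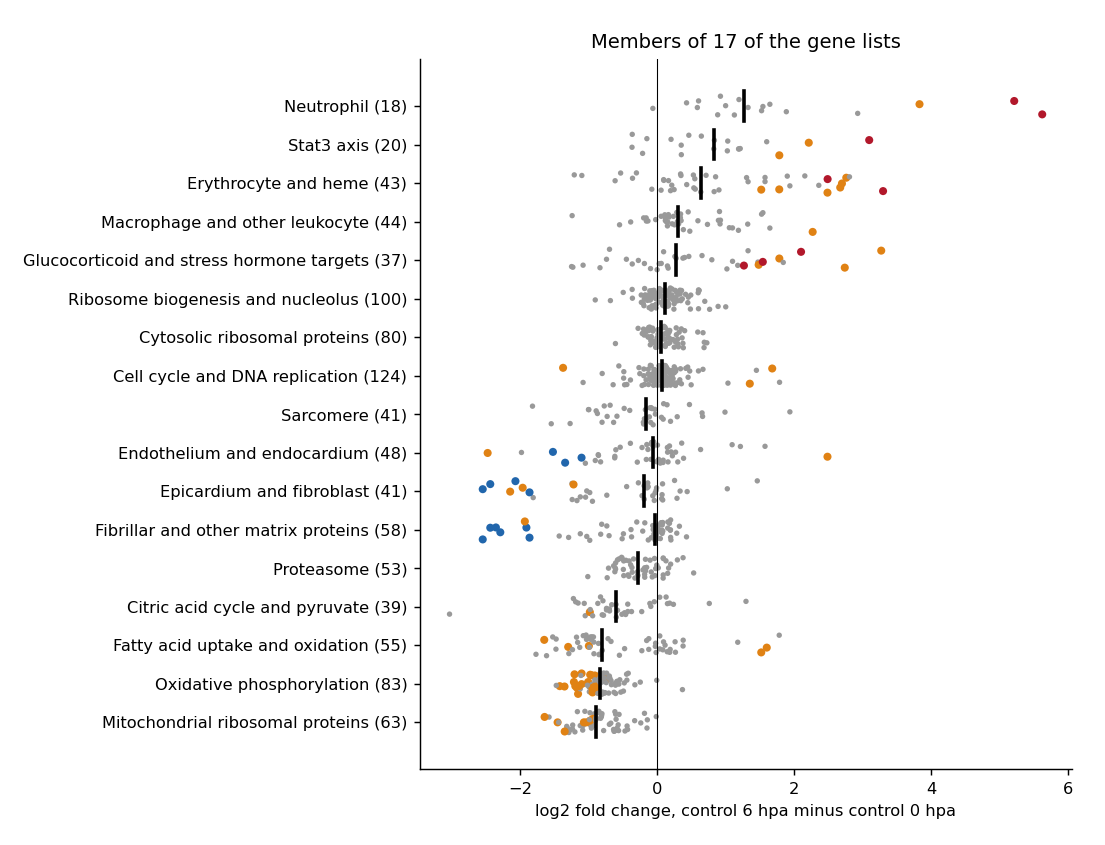
Log2 fold change (control 6 hpa minus control 0 hpa) of the members of 17 gene lists, 1 point per gene, with the number of genes in brackets and a black bar at the median. Red and blue points passed with 12 arrays and orange points only without TCDD 6 hpa replicate 1; the neutrophil median lies at 1.26 and those of oxidative phosphorylation and mitochondrial ribosomal proteins at −0.83 and −0.90.

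Immediate early genes, which respond within minutes to injury and to handling of the tissue, lay as often higher as lower. Of 91 genes for such and other stress-induced transcription factors 2 rose and 1 fell. In each direction 28 had arrays apart (30.8%), against 20.9% of all genes with 6 hpa higher and 24.3% with 6 hpa lower. Fosab was at 6.73 and 6.77 at 6 hpa against 5.66 and 6.80 at 0 hpa (0.52 ± 0.83, adjusted p = 1.0) and junba at 7.08 and 7.06 against 6.07 and 7.15 (0.46 ± 0.55, adjusted p = 0.978). For both genes replicate 2 of the unamputated ventricle was as high as the amputated arrays. Atf3, a stress-induced factor, was at 6.34 and 6.27 against 5.6 and 5.57 (0.72 ± 0.56, adjusted p = 0.855), junbb at 1.07 ± 0.39 (adjusted p = 0.362), and egr1 between 3.31 and 3.62 on all 4 arrays.

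Cell division genes gave no call with all arrays. Of 124 genes of the cell cycle and DNA replication none passed with 12 arrays, and the median was 0.08. Pcna, the replication clamp, was at 6.05 and 5.55 at 6 hpa against 6.03 and 5.67 at 0 hpa (−0.05 ± 0.29, adjusted p = 1.0). With 11 arrays 2 were higher, the licensing factor gene cdt1 (1.35 ± 0.27, adjusted p = 0.0758 and 0.0429) and the inhibitor gene cdkn1bb (1.68 ± 0.32, adjusted p = 0.066 and 0.0447), and 1 lower, the kinase gene plk2b. Over all genes 0.842% were called higher and 1.66% lower with 11 arrays, so these counts say little about the list. Other lists without a call in either fit were the interferon response (28 genes, median 0.13), sterol synthesis (22 genes, 0.06), pancreas and gut (30 genes, 0.04), translation factors (70 genes) and the unfolded protein response (74 genes, −0.04).

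Falls outside these lists were of many kinds. Cdc42ep3, an effector of the small GTPase Cdc42, was at 3.70 and 4.3 at 6 hpa against 6.96 and 7.61 at 0 hpa (−3.29 ± 0.47, adjusted p = 0.0299). Prickle1b, of planar cell polarity, was at 3.02 and 3.19 against 4.58 and 4.55 (−1.46 ± 0.20, adjusted p = 0.0299), and pmp22a, a membrane protein first known from myelin, at 4.35 and 4.24 against 6.15 and 6.28 (−1.92 ± 0.30, adjusted p = 0.0401). Kctd12.2 fell by 1.80 ± 0.21 (adjusted p = 0.0197), with its dimmer probe set at −0.96. Other falls, of 1.04 to 1.90 log2 units, were those of selenbp1, raly, mid1ip1l, proza, nipsnap3a, ip6k2a, msraa and gmfb. The dimmer probe set of msraa was at −0.59 (adjusted p = 0.414). In the plasma protein list cfd, complement factor D, and tfa, transferrin, fell by 3.60 ± 0.40 and 2.39 ± 0.24 (adjusted p = 0.0197 for both).

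The same interval in TCDD-treated fish used 4 other arrays, although both comparisons share the estimate of the spread. The deviations of same-numbered control and TCDD arrays from their group means correlated at 0.476 at 0 hpa and at −0.135 at 6 hpa. The TCDD arrays are thus not shown to be independent of the control arrays. Of the 74 probe sets called in controls 73 had the same direction under TCDD, against 74.1% of all probe sets, and 54 were also called there, against a background of 1.88% of probe sets called under TCDD in either direction. In 72 the TCDD 6 hpa arrays lay wholly on the same side of the TCDD 0 hpa arrays, as in 39.0% of all probe sets. None of the 74 differed between control and TCDD fish in a test of the interaction, which called 1 probe set of 15502 by limma and gave an unadjusted p under 0.05 for 176, 12 of them among the 74. Igfbp1a had a log2 fold change of 2.86 in control fish and 5.05 in TCDD fish (interaction adjusted p = 1.0), and mmp13a 5.21 in control fish and 3.1 in TCDD fish, where replicate 1 of 6 hpa was at 8.25 and replicate 2 at 11.12. Medians of the lists, set side by side without a test, were 1.26 in control fish and 0.43 in TCDD fish for neutrophil genes. They were 0.64 in control fish and 0.67 in TCDD fish for red cell genes, and −0.83 and −1.33 for oxidative phosphorylation. The TCDD medians include TCDD 6 hpa replicate 1, the array that stood apart. On it ncf1 was at 3.45, against 7.70 on replicate 2, and cox5ab at 6.12, against 8.44. How far that array moved these medians was not tested.

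**Figure D5:**
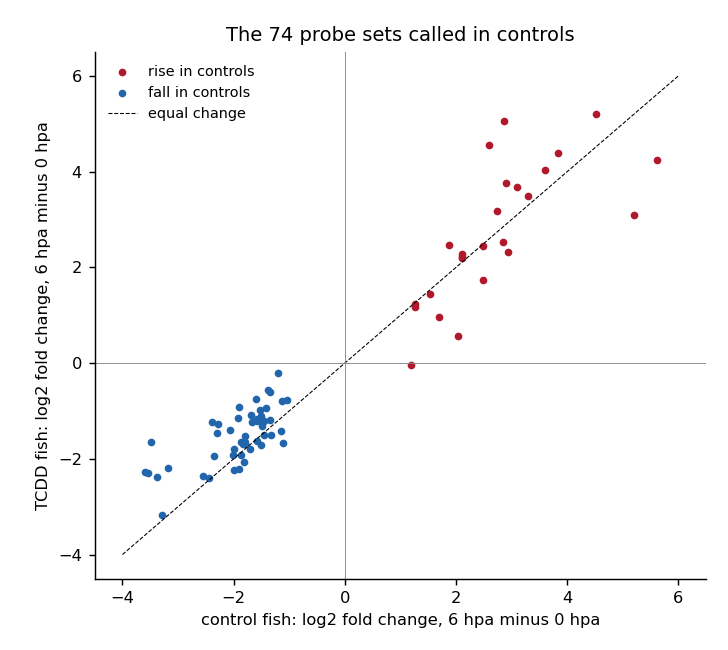
Log2 fold change (6 hpa minus 0 hpa) of the 74 probe sets called in controls, in control fish (horizontal) and in TCDD fish (vertical), with a dashed line of equal change. All 49 falls and 24 of the 25 rises have the same sign in both.

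At 7 dpa the control ventricle gave other levels for the same genes; this later comparison uses the same unamputated arrays. Mmp9 was at 4.56 and 5.97 at 7 dpa and mmp13a at 4.34 and 4.64, while timp2b was at 6.18 and 5.1. Mmp2, lower than the unamputated level at 6 hpa, was at 8.64 and 8.12, and col1a2 and dcn were at 9.51 and 10.18 and at 8.80 and 8.97. Klf1 was at 5.56 and 3.77, gata1a at 3.57 and 3.3, and ncf1, of neutrophils and other phagocytes, at 6.73 and 4.96. Sgk1 was at 7.41 and 6.99 and klf9 at 5.63 and 4.71. Ndufc2 was at 8.66 and 8.82, close to its levels of 8.98 and 8.85 at 6 hpa.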

How the data were processed

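The 12 Affymetrix zebrafish arrays, 2 in each of the 6 groups, each carry a pool of 10 hearts. The authors deposited intensity values that were summarised by RMA, per the submitters' processing notes. Because the values reach far beyond a log scale they were taken as linear and converted to log2. The sources used here name no RMA version or genome build. No filter on dim values was applied: after removal of 115 control probe sets from 15617, all of the other 15502 were tested. GEO's platform annotation, updated through a RefSeq table, gave 1 symbol to 10795, several to 135 and none to 4572.

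Group means of all 12 arrays were fitted with limma 3.58.1 in R 4.3.3 (6 residual and 2.87 prior degrees of freedom), and p-values were adjusted over all probe sets by the Benjamini-Hochberg method, with calls below 0.05. The scripts were checked on simulated data. With 2 arrays a group, the smallest p of an exact permutation test is 0.333. Counts by gene use the probe set with the highest mean (8793 genes). Lists (50) are described by counts and medians. The members and lists were chosen with earlier results of these data known. Named were all called probe sets with 1 symbol and arrays apart, and list members with arrays apart called without TCDD 6 hpa replicate 1. Also named were up to 3 uncalled members per list with a log2 fold change of 1 or more and arrays apart. A further 52 genes were fixed, of which 34 had a probe set. Promoter sequences were not used here, and the authors' 5 comparison tables were not used. Nothing in the sources used here says that the replicate numbers pair pools. Levels ending in 0 are printed to 1 decimal. The number of arrays limits the precision.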

Additional observations from a re-analysis of the deposited data

How the results depend on the processing

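All 74 called probe sets kept their direction in each of the 17 alternatives that included them, but the counts moved. The kept direction says little, since the groups did not overlap in any of the 74. Leaving out 1 array could therefore not reverse it, and several other alternatives left the fold changes as they were. The 74 calls (25 rises, 49 falls) became 156 (72 and 84) after quantile normalization, 22 (4 and 18) after centring each array on its median, 566 (198 and 368) with array weights, 23 (9 and 14) with the 4 arrays alone, 32 (5 and 27) with 16 added to the intensity before log2, and 309 (109 and 200) without TCDD 6 hpa replicate 1. Rises were 33.8% of calls in the main setting, 46.2% after quantile normalization and 18.2% after centring. Without 1 of the 4 compared arrays 2 to 19 probe sets passed (0 to 15 rises, 2 to 4 falls; 15 rises and 4 falls without control 6 hpa replicate 2): 2 or 19 without control 6 hpa replicate 1 or 2, and 2 or 4 without control 0 hpa replicate 1 or 2. Leaving out the dimmest 25% gave 100 calls, trend and robust settings 73, the 6 control arrays 60, 1 probe set per gene 75 and a limit of 1 on the log2 fold change 74. With the replicate number as a block there were 66 calls (21 and 45), 53 of them among the 74. The deviations of same-numbered arrays of control 0 hpa and 6 hpa correlated at 0.118, so a pairing of the 2 groups compared is not shown. Over all pairs of groups the correlations lay between −0.378 and 0.563. Between control and TCDD arrays of the same time they were 0.476 at 0 hpa, −0.135 at 6 hpa and 0.563 at 7 dpa. The block without TCDD 6 hpa replicate 1, chosen after seeing the data, gave 475 (149 and 326). Of 50 list medians 24 took either sign across leaving out an array or scaling, among them those of the matrix, endothelium, hypoxia, immediate early, cell cycle, interferon, growth factor, Wnt, cytokine, sterol, translation and unfolded protein lists. Dim levels carry no detection call, and 2 pools a group limit every value.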

Other observations

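Several genes that handle stressed proteins and oxidants were called only without TCDD 6 hpa replicate 1, in both directions. Of 81 heat shock and chaperone genes 2 were called higher and 1 lower with 11 arrays, and 47 were negative (median −0.06). Of 43 antioxidant genes 2 were called higher and 2 lower, and 24 were negative (median −0.03). Over all 8793 genes 0.842% were called higher and 1.66% lower. Ppp1r15a, which restarts translation after stress, was at 7.21 and 7.18 at 6 hpa against 4.61 and 5.88 at 0 hpa on its brightest probe set (adjusted p = 0.208, or 0.0703 with 11 arrays), and 2 of its dimmer probe sets passed with 11 arrays (1.42 ± 0.48 and 1.32 ± 0.50, adjusted p = 0.0414 and 0.0464). The co-chaperone gene ptges3a was at 8.87 and 8.64 against 6.12 and 7.01 (2.19 ± 0.57, adjusted p = 0.162, or 0.0154), and the ubiquitin gene ubb at 11.75 and 12.09 against 10.92 and 10.76 (1.08 ± 0.26, adjusted p = 0.133, or 0.0336). Keap1a, which holds the antioxidant factor Nrf2 in check, was at 5.89 and 5.90 against 4.41 and 4.63 (1.38 ± 0.31, adjusted p = 0.117, or 0.0163), while gstp1.2, a glutathione transferase, was at 7.27 and 7.07 against 8.90 and 8.59 (−1.58 ± 0.61, adjusted p = 0.394, or 0.028). Also called lower were the DnaJ gene dnajc11a (−0.88 ± 0.20, adjusted p = 0.116, or 0.0297) and cdo1, of the antioxidant list (−1.48 ± 0.25, adjusted p = 0.0513, or 0.0322). In each of these genes the groups did not overlap, which was a condition for naming them.

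Ckbb, a creatine kinase, was at 7.65 and 7.80 at 6 hpa against 9.15 and 8.99 at 0 hpa (−1.35 ± 0.39, adjusted p = 0.217, or 0.0173 with 11 arrays), and the mitochondrial creatine kinase gene ckmt2a at 8.89 and 8.54 against 9.98 and 9.88 (−1.21 ± 0.34, adjusted p = 0.194, or 0.061). Rbp4, the retinol carrier of plasma, was at 6.30 and 6.94 against 9.03 and 8.79 (−2.29 ± 0.56, adjusted p = 0.145, or 0.0133). Of the 6 measured liver markers fabp10a lay below the array median on all 4 arrays. Tfa was at 3.16 and 3.28 at 6 hpa against 5.51 and 5.71 at 0 hpa, and hp at 4.21 and 5.92 against 4.12 and 4.17.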
